A study of Rattus norvegicus with 16 samples.

Results

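The genes described here encode carriers that move amino acids, neurotransmitters and related small molecules across membranes. They are all 53 genes, of 14217 measured, whose annotated symbol starts with Slc1a (6 genes), Slc3a (2), Slc6a (16), Slc7a (15), Slc36a (3), Slc38a (9) or Slc43a (2), each read by the probe set whose mean over 16 arrays was highest. Of these, 52 are carriers or carrier subunits, and Slc7a6os is a gene on the strand opposite Slc7a6 that shares only the symbol stem. The samples were pancreatic islets isolated from male Wistar rats aged 8 weeks and kept in RPMI medium with 10% serum and 8 mM glucose. The untreated group (n = 5 arrays) received no virus, the Adβgal group (n = 6) received a control adenovirus that expresses β-galactosidase, and the AdNkx6.1 group (n = 5) received an adenovirus that expresses the transcription factor Nkx6.1. Both viruses were given at about 2e9 particles/ml for 18 h, and all islets were collected at 48 h. The promoter of each virus and the cells it entered are not given in the sources used here. The titles call the arrays biological replicates without naming animals, so p-values weigh changes against the spread between these arrays. That spread was estimated over all 3 groups together, so p-values of a comparison also depend on the group outside it. Values are log2 intensities from 1-colour Affymetrix arrays, and array medians ran from 264.8 to 296.2 on the linear scale. A change is the difference of 2 group means of log2 values with its standard error (SE), and "called" means an adjusted p under 0.05 in the limma fit across all genes.

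Amino acids enter islet cells through carriers that differ in their substrates and in the ions they move with. Slc1a carriers take up glutamate or exchange neutral amino acids, and Slc6a carriers use the sodium and chloride gradients to take up neurotransmitters, creatine, taurine or neutral amino acids. Slc7a holds the cationic amino acid carriers and the light chains that work only when joined to a heavy chain, Slc3a1 or Slc3a2. Slc36a, Slc38a and Slc43a carriers move small and neutral amino acids, some of them at the lysosome. In beta cells, amino acids feed insulin synthesis and metabolism, and several of them raise insulin secretion.

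The labelled tissue was checked first. The islet hormone genes Ins1, Ins2, Iapp and Gcg had group means between 14.17 and 14.82 in all 3 groups. Nkx6-1 itself was lower with AdNkx6.1, at 11.43 ± 0.17 (SD, n = 5) against 11.9 ± 0.19 with Adβgal (n = 6). Whether the delivered sequence contains the target of this probe set is not given in the sources used here, so it gives no check of the labels. The islet endocrine list lay lower with treatment: its mean centred log2 level ran from 0.13 to 0.26 untreated, from -0.14 to 0.06 with Adβgal and from -0.24 to -0.12 with AdNkx6.1. Of its 14 measured genes, 10 were called lower in AdNkx6.1 against untreated and 0 higher, beside 13.8% of all genes lower and 16.9% higher. Fewer cells of a type and less RNA per cell cannot be told apart in whole islets.

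Some Adβgal arrays stood apart. Markers of acinar cells, the enzyme-secreting cells around the islets, averaged -0.03, -1.05, 0.47, 1.73, 1.08 and 1.16 on Adβgal arrays 1 to 6 after centring each gene, against -0.68 to 0.16 untreated and -1.26 to 0.3 with AdNkx6.1. Summed acinar intensities ran from 25167 to 129862 with Adβgal, from 32212 to 52764 untreated and from 27134 to 69062 with AdNkx6.1. None of the 21 acinar genes was at or under a log2 level of 6 in every group. Endothelial markers ran from -1.31 to 1.57 with Adβgal, against -0.31 to -0.13 untreated, and leukocyte markers from -0.28 to 0.82, against -0.15 to 0.13. Their summed intensities ran from 6225 to 32985 and from 11683 to 21183 with Adβgal, against 10978 to 12995 and 12224 to 15110 untreated, and 10305 to 20068 and 10108 to 16029 with AdNkx6.1. Between the viruses 4 of 21 acinar genes, 1 of 21 leukocyte genes and 0 of 11 endothelial genes were called lower, beside 8.48% of all genes. Among these lists 1 gene was called higher, the leukocyte gene Lck (2.13-fold, limma adjusted p = 0.00026), beside 16.6% of all genes. The results below were therefore also computed without Adβgal arrays 4, 5 and 6 together, an alternative chosen once the data had been seen. The lower counts were then 2 acinar and 0 leukocyte genes, with 4028 of all genes called in either direction. The part of these other cell types in the carrier results was not tested.

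**Figure D1:**
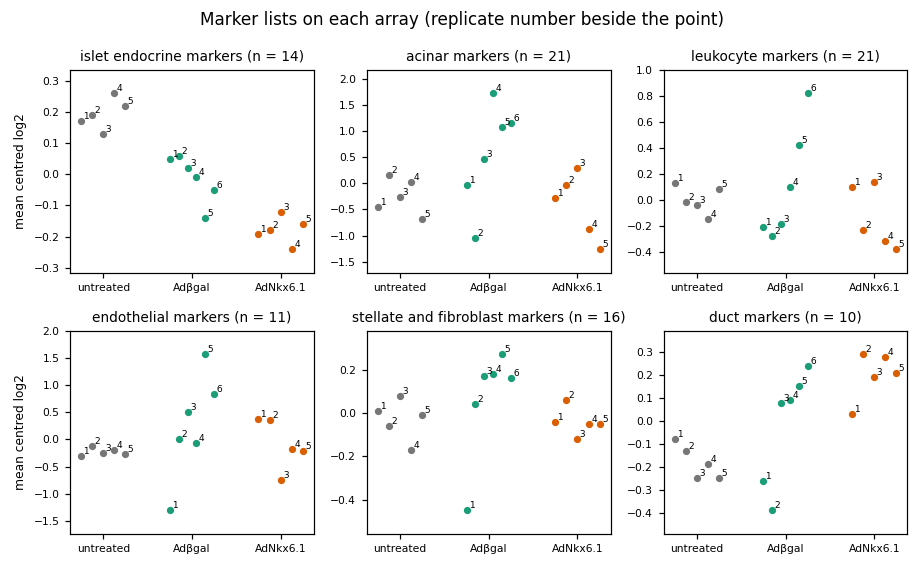
Mean centred log2 level of the marker lists on each array (y axis, log2 units) by group (x axis); each point is 1 array with its number beside it. Acinar markers spread from -1.05 to 1.73 over the 6 Adβgal arrays, and the islet endocrine list is highest on the 5 untreated arrays.

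The first comparison sets AdNkx6.1 against Adβgal, groups whose viruses carry different genes at the same approximate dose. Of the 53 genes, 5 rose (Slc1a5, Slc6a8, Slc1a1, Slc38a3 and Slc7a10), 4 fell (Slc1a2, Slc7a11, Slc7a14 and Slc38a4), and 44 were not called. Among all genes 25% were called in this comparison, 16.6% higher and 8.48% lower, and with all arrays the carriers lay below that, at 17%. The share was 26.5% of the 34 carriers with a mean log2 level above 6, and 0% of the 19 others. The 25% covers genes of every level. The median change of the 53 genes was 0.03, beside 0.02 over all genes, and 7 of the 9 called genes changed at least 1.5-fold. All 9 kept their call without Adβgal arrays 4, 5 and 6.

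Slc1a5 encodes an exchanger of neutral amino acids that is a main route for glutamine. Its AdNkx6.1 arrays read 10.36, 10.33, 10.14, 10.3 and 10.34, and the Adβgal arrays ran from 9.04 to 9.59 with a median of 9.33. The 5 untreated arrays read 9.13, 8.8, 9.03, 8.71 and 9.03. Every AdNkx6.1 array lay above every array of both other groups. The rise over Adβgal was 1.94-fold, a log2 change of 0.96 (SE 0.11, limma adjusted p = 8.5e-06). The group means were 8.94 ± 0.18 untreated, 9.33 ± 0.23 with Adβgal and 10.29 ± 0.09 with AdNkx6.1.

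Slc6a8 encodes the plasma membrane creatine carrier. It read 11.5, 11.19, 11.28, 11.48 and 11.39 with AdNkx6.1, from 9.73 to 10.74 with a median of 10.62 with Adβgal, and 10.47, 10.5, 10.56, 10.43 and 10.54 untreated. The AdNkx6.1 arrays did not overlap with the others, and the lowest array of all was Adβgal 4. The rise over Adβgal was 1.85-fold (log2 change 0.88, SE 0.14, limma adjusted p = 0.00026). A second probe set of Slc6a8 rose by 0.47 (SE 0.10, adjusted p = 0.0045 over all probe sets). Against untreated islets the rise was 0.87 (SE 0.15), and Adβgal differed from untreated by -0.02 (adjusted p = 0.95).

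Slc38a3 encodes a sodium-coupled carrier of glutamine and histidine. Its 5 AdNkx6.1 arrays read 9.3, 9.19, 9.3, 9.4 and 9.55. The Adβgal arrays ran from 8.41 to 9.28 with a median of 8.53. Untreated islets read 8.27, 8.26, 8.45, 8.31 and 8.32. One Adβgal array, the fifth, reached into the AdNkx6.1 range, and the other 5 lay at or under 8.65. The change over Adβgal was 0.71 (SE 0.13, 1.64-fold higher, limma adjusted p = 0.00066), and it was 0.85 without Adβgal arrays 4, 5 and 6.

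Slc1a1 encodes a carrier of glutamate, aspartate and cysteine known from neurons and epithelia. It read 8.84, 8.71, 9.16, 8.86 and 8.72 with AdNkx6.1, from 7.19 to 8.74 with a median of 8.13 with Adβgal, and 8.18, 7.89, 8.53, 8.47 and 8.11 untreated. Only the highest Adβgal array, the first, overlapped with the AdNkx6.1 arrays. The rise was 1.72-fold (log2 change 0.78, SE 0.21, limma adjusted p = 0.011). Without Adβgal arrays 4, 5 and 6 it was 0.52, at an adjusted p of 0.046. Its second, dimmer probe set differed by 0.50 (SE 0.21, adjusted p = 0.11 over all probe sets).

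Slc7a10 encodes a light chain that exchanges small neutral amino acids, D-serine among them. It read 8.13, 8.28, 7.53, 8.16 and 8.36 with AdNkx6.1 and from 7.15 to 7.67 with a median of 7.42 with Adβgal. Untreated islets read 7.57, 7.66, 7.75, 7.64 and 7.53. The third AdNkx6.1 array lay within the range of the Adβgal arrays, and the other 4 lay above it. The rise was 1.59-fold (log2 change 0.66, SE 0.13, limma adjusted p = 0.0011). Its heavy chain partner Slc3a2 was not called, with a change of -0.09 (adjusted p = 0.60).

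Slc1a2 encodes the carrier that clears most glutamate around astrocytes in the brain. It had the lowest change of the 53 genes in this comparison. The AdNkx6.1 arrays read 9.09, 9.09, 8.95, 9.12 and 8.94, all below the Adβgal arrays, which ran from 9.2 to 10.33 with a median of 10.12. Untreated islets read 9.9, 9.85, 9.99, 9.72 and 9.76, also all above AdNkx6.1. The fall was 1.85-fold (log2 change -0.89, SE 0.16, limma adjusted p = 0.00076), and the change was -1.15 without Adβgal arrays 4, 5 and 6. A second probe set differed by -0.54 (SE 0.20, adjusted p = 0.071 over all probe sets).

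Slc7a11 encodes the light chain of the exchanger that takes up cystine for glutamate and so feeds glutathione synthesis. It rose with the control virus and was lower again with AdNkx6.1, and both comparisons use the same Adβgal arrays. The untreated arrays read 10.45, 10.51, 10.68, 10.35 and 10.42, the Adβgal arrays ran from 10.73 to 11.18 with a median of 10.98, and the AdNkx6.1 arrays read 10.42, 10.4, 10.2, 10.07 and 10.03. The Adβgal arrays overlapped with neither other group. Adβgal exceeded untreated islets by 0.48 (SE 0.10, adjusted p = 0.0099), and AdNkx6.1 fell below Adβgal by 0.74 (SE 0.10, 1.67-fold, limma adjusted p = 4.5e-05). AdNkx6.1 against untreated gave -0.26 with an adjusted p of 0.072, and without Adβgal arrays 4, 5 and 6 that p was 0.04 at the same change.

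The other genes that fell were Slc7a14, a relative of the cationic amino acid carriers, and Slc38a4, a sodium-coupled carrier of neutral amino acids. Slc7a14 read 7.97, 7.95, 7.64, 7.8 and 7.98 with AdNkx6.1, from 7.75 to 8.88 with a median of 8.45 with Adβgal, and 8.32, 8.47, 8.55, 8.42 and 8.72 untreated. Its AdNkx6.1 arrays overlapped with the lowest Adβgal array, the fifth, and with no untreated array. The change was -0.55 (SE 0.17, limma adjusted p = 0.025). It was -0.90 without Adβgal arrays 4, 5 and 6, and the adjusted p rose to at most 0.063 when Adβgal array 2 or AdNkx6.1 array 3 or 4 was left out. Slc38a4 read 12.32, 12.31, 12.32, 12.46 and 12.33 with AdNkx6.1, from 12.42 to 12.78 with a median of 12.64 with Adβgal, and 12.99, 12.68, 12.59, 12.76 and 12.8 untreated. The fourth AdNkx6.1 array overlapped with the lowest Adβgal array. The change was -0.26 (SE 0.08, 1.2-fold lower, adjusted p = 0.026), and the call was lost, with adjusted p at most 0.057, when Adβgal array 3 or 6 or AdNkx6.1 array 1, 2 or 5 was left out.

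**Figure D2:**
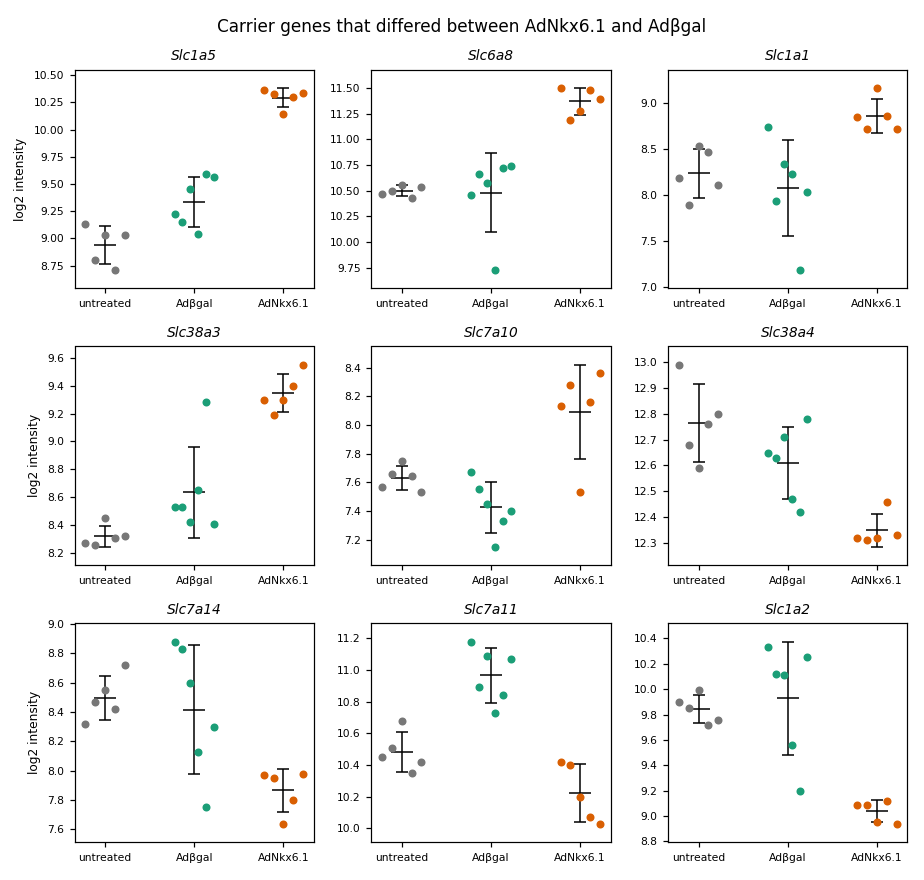
Log2 intensity (y axis, own range in each panel) of the 9 genes called in AdNkx6.1 against Adβgal on each of the 16 arrays (points) by group (x axis), with the group mean and bars of 1 SD. For Slc1a5, Slc6a8, Slc1a2 and Slc7a11 the AdNkx6.1 and Adβgal arrays do not overlap, and the Slc7a11 level is highest with Adβgal at 10.97 ± 0.17 (SD).

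Another 6 genes were not called with all arrays and passed the threshold when Adβgal arrays 4, 5 and 6 were left out. This raised the counts to 8 higher and 7 lower of 53. That is about the share of all genes, of which 4028 of 14217 were called in that fit. Slc1a3 differed by 0.40, Slc7a6, a light chain for cationic and neutral amino acids, by 0.24 and Slc38a1, a sodium-coupled glutamine carrier, by 0.22. Slc7a2, a cationic amino acid carrier, differed by -0.54, Slc43a2, a facilitated carrier of large neutral amino acids, by -0.25 and Slc1a4, a neutral amino acid exchanger, by -0.19. In the fit of all arrays these 6 changes were 0.13, 0.09, 0.27, -0.30, -0.05 and -0.14 in the same order, with adjusted p between 0.11 and 0.75. Leaving out 1 array was enough for a call in Slc1a4 (adjusted p = 0.014 without Adβgal array 4) and in Slc7a2 (0.019 without Adβgal array 5). For Slc43a2 the second probe set, at 0.30 (SE 0.24), differed in sign from the first.

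A further 3 genes had values on Adβgal arrays 4 and 5 far under the rest of the group and changed sign without arrays 4 to 6, with no call either way. Slc3a1, the heavy chain of the cystine carrier of kidney and gut, read 9.37 and 8.07 there, against 10 to 11.19 on the other 4 Adβgal arrays. Slc7a3, a cationic amino acid carrier, read 5.03 and 4.98 there, against 6.62 to 7.5. Slc38a7, a glutamine carrier of the lysosome, read 5.24 and 5.25, against 6.26 to 7.12. Their changes were 0.33, 0.53 and 0.28 over all arrays and -0.45, -0.06 and -0.37 without the 3 arrays.

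**Figure D3:**
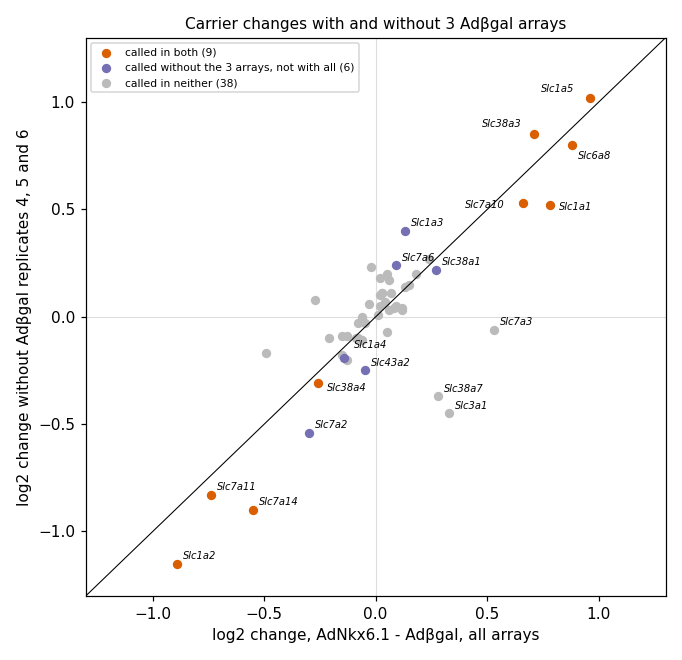
Log2 change of each of the 53 genes for AdNkx6.1 minus Adβgal over all arrays (x axis) and without Adβgal arrays 4, 5 and 6 (y axis); the line marks equal values. The 9 orange genes were called both ways, the 6 purple genes without the 3 arrays but not with all, and Slc3a1 moves from 0.33 to -0.45.

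Promoters of some of the genes that moved are shown as sequence because the delivered protein is a DNA-binding homeodomain factor. Promoter windows of 250 bases before the start were matched by Entrez gene ID to RefSeq (build GRCr8) for 41 of the 53 genes. Of the genes that rose between the viruses only Slc6a8 and Slc7a10 had a window, and Slc1a5, Slc1a1 and Slc38a3 had none. The windows of Slc6a8, which rose, Slc1a2 and Slc7a11, which fell, and Slc1a4, an uncalled member with an ATF4 motif, are given 5′ to 3′ on the strand of the gene, in lower case with the searched motifs in capitals. Slc6a8 lies at chrX:156535767-156536016 (plus strand), Slc1a2 at chr3:109459859-109460108 (plus), Slc7a11 at chr2:136668265-136668514 (minus) and Slc1a4 at chr14:98761563-98761812 (minus).
Slc6a8: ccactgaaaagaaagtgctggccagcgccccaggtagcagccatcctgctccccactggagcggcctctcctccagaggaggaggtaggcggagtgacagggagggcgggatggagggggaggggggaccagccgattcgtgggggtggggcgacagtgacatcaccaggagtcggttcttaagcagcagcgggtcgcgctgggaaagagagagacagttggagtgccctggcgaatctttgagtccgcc
Slc1a2: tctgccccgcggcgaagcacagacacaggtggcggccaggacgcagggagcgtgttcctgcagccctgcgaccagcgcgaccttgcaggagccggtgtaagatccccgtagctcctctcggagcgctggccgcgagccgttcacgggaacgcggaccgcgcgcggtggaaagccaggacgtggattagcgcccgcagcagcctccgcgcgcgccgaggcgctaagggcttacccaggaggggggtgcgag
Slc7a11: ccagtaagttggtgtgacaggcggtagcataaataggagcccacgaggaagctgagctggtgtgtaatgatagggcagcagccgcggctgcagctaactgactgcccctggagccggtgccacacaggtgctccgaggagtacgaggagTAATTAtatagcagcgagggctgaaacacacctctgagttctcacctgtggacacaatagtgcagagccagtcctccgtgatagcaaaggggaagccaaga
Slc1a4: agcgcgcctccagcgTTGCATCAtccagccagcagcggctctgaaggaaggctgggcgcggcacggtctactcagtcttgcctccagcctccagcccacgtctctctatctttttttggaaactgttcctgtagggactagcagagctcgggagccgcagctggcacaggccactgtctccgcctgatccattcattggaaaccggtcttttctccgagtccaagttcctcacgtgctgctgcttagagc

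The capitals in Slc7a11 mark TAATTA, the core letters that homeodomain proteins bind, from position -101 to -96 relative to the start. The capitals in Slc1a4 mark TGATGNAA on the opposite strand, the element of ATF4 with C/EBP proteins, from position -235 to -228. Over both strands, TAATTA was in 5 of the 41 promoters (12.2%: Slc6a5, Slc7a8, Slc7a9, Slc7a11 and Slc7a12) and in 4.94% of all 27457 promoters. Of these 5 genes only Slc7a11 was called between the viruses. Slc6a5, Slc7a9 and Slc7a12 were dim and called in no comparison. TGATGNAA was in 3 (7.32%: Slc1a4, Slc7a1 and Slc38a1), beside 3.27% of all promoters. AAAGGTCA, the element of NR4A receptors, was in 0 of 41, beside 1.11% of all. TGACGTCA, the cyclic AMP response element, was in 1 (Slc38a6), beside 1.7%. The interferon-stimulated response element was in 1 (Slc1a3), beside 3.29%. No match overlapped another in these promoters. The median GC content was 57.2% in the 41 promoters and 52% in all. A match describes these letters only.

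The second comparison, Adβgal against untreated, addresses the control virus by itself. The sodium-coupled neutral amino acid carriers Slc38a2 and Slc38a5 were lower, together with Slc36a1, Slc7a4 and Slc7a13, while Slc7a11, Slc1a5 and Slc1a3 were higher. Of the 53 genes 3 rose and 5 fell, and none of them changed by 1.5-fold. The share called was 15.1%, beside 7.01% of all genes (2.84% higher and 4.17% lower), and the median change was -0.06, beside -0.04 over all genes. The counts were 1 higher when untreated array 2, 3, 4 or 5, Adβgal array 5 or 6 or AdNkx6.1 array 4 or 5 was left out, and 3 lower without untreated array 1, 2, 4 or 5. Of the islet endocrine list 4 of 14 genes were called lower and 0 higher in this comparison (28.6%, median -0.2). Without Adβgal arrays 4, 5 and 6, 2 were lower, while calls over all genes fell from 997 to 552. The acinar markers lay higher by a median of 0.73, with 0 of 21 called higher and 1 lower, and that median was -0.01 without the 3 arrays.

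Slc38a5 encodes a sodium-coupled carrier of glutamine, serine and histidine. It read 13.88, 13.92, 13.86, 13.95 and 14 untreated, from 13.25 to 13.74 with a median of 13.58 with Adβgal, and 13.6, 13.69, 13.64, 13.54 and 13.56 with AdNkx6.1. Both virus groups lay wholly below the untreated arrays. The change with Adβgal was -0.37 (SE 0.08, limma adjusted p = 0.011), -0.24 without Adβgal arrays 4, 5 and 6, and the change with AdNkx6.1 was -0.31 (SE 0.08, adjusted p = 0.0071).

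Slc38a2, a sodium-coupled neutral amino acid carrier induced by amino acid shortage, read 13.16, 13.2, 13, 13.14 and 13.13 untreated and from 12.72 to 13 with a median of 12.88 with Adβgal. With AdNkx6.1 it read 12.76, 12.83, 12.94, 12.73 and 12.83. The AdNkx6.1 arrays lay wholly below the untreated ones, and so did the Adβgal arrays, by a margin under the second decimal at the highest of them. The changes were -0.26 (SE 0.06, limma adjusted p = 0.023) with Adβgal and -0.31 (SE 0.07, adjusted p = 0.0024) with AdNkx6.1. The first call was lost when untreated array 1, 2, 4 or 5 was left out, at adjusted p of at most 0.07.

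Slc7a4, whose substrate is not settled, read 11.68, 11.75, 11.66, 11.67 and 11.69 untreated, from 10.94 to 11.48 with a median of 11.31 with Adβgal, and 11.47, 11.47, 11.23, 11.3 and 11.3 with AdNkx6.1. All virus-treated arrays lay below all untreated ones. The changes were -0.42 (SE 0.09, limma adjusted p = 0.011) and -0.34 (SE 0.09, adjusted p = 0.012). Slc36a1, a proton-coupled carrier of small amino acids at the lysosome, read 7.06, 7.08, 6.86, 6.98 and 7.05 untreated and from 6.56 to 6.83 with a median of 6.77 with Adβgal, with no overlap. Its change was -0.28 (SE 0.07, adjusted p = 0.027). The call was lost without Adβgal arrays 4, 5 and 6 (adjusted p 0.13) and when untreated array 1, 2, 4 or 5 or Adβgal array 6 was left out (at most 0.077). Slc7a13, a light chain for aspartate and glutamate known from kidney, was dim at group means of 3.93, 3.51 and 3.69, and its change was -0.42 (SE 0.08, adjusted p = 0.0057).

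Of the genes that rose with the control virus, Slc7a11 is described above. Slc1a5 rose by 0.39 (SE 0.11, limma adjusted p = 0.039). That call was lost without Adβgal arrays 4, 5 and 6 (adjusted p 0.09) and with each of 9 single arrays left out, namely untreated 2 to 5, Adβgal 3, 5 and 6 and AdNkx6.1 4 and 5, at adjusted p of at most 0.11. Slc1a3, a glutamate carrier known from glia, read 10.48, 10.69, 10.53, 10.53 and 10.48 untreated, from 10.48 to 11.46 with a median of 11.02 with Adβgal, and 11.01, 11.25, 11.43, 11.06 and 11.09 with AdNkx6.1. Adβgal array 2 lay at the untreated level. The change was 0.50 (SE 0.14, adjusted p = 0.049), 0.23 (adjusted p 0.28) without Adβgal arrays 4, 5 and 6. Leaving out any single array except Adβgal 2, Adβgal 3 or AdNkx6.1 3 also lost the call, at adjusted p of at most 0.11. The other probe sets of Slc1a3 differed by 0.23 and -0.21, neither called.

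**Figure D4:**
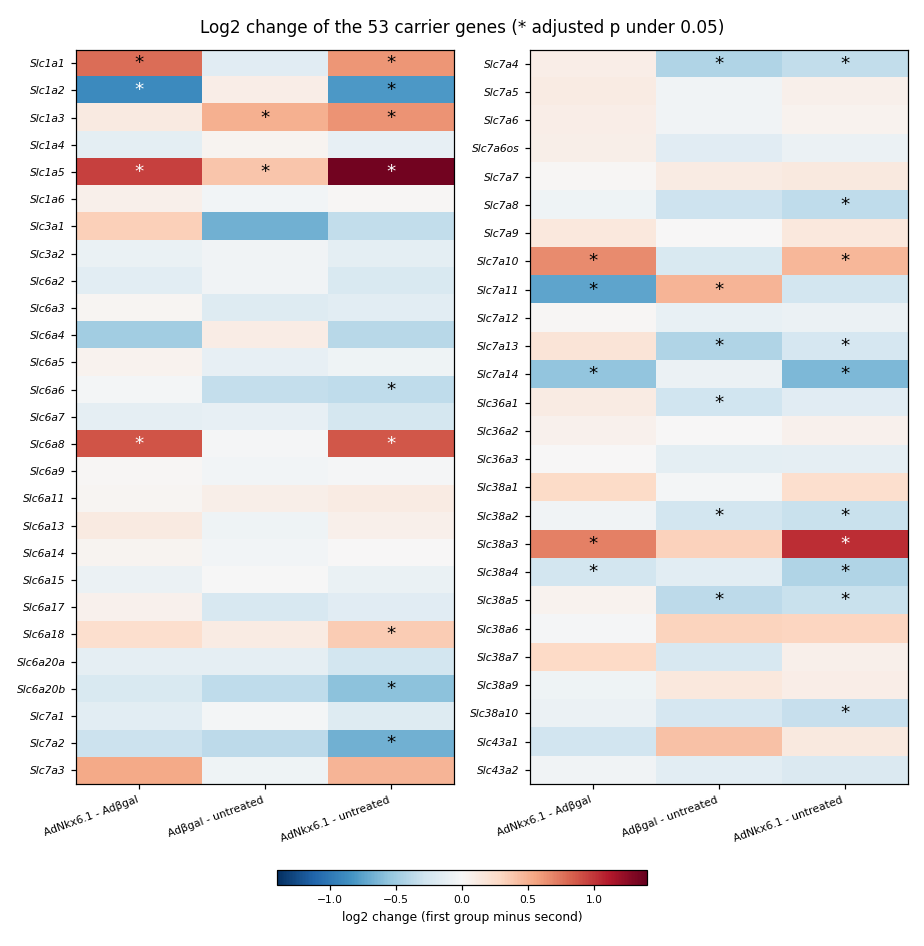
Log2 change (colour, first group minus second) of each of the 53 genes (rows) in the 3 comparisons (columns); an asterisk marks a limma adjusted p under 0.05. Slc1a5 carries an asterisk in all 3 columns, and Slc7a11 is higher in Adβgal against untreated (0.48) and lower in AdNkx6.1 against Adβgal (-0.74).

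AdNkx6.1 against untreated combines the virus and the delivered factor and shares its arrays with both other comparisons. The genes called higher were Slc1a5, Slc38a3, Slc6a8, Slc1a1, Slc7a10, Slc1a3 and Slc6a18. Carriers of glutamine and of glutamate went both ways, since Slc38a2, Slc38a5 and Slc1a2 were called lower. Of the 53 genes 7 rose and 12 fell (35.8%), beside 30.7% of all genes (16.9% higher and 13.8% lower). The median change was -0.09, beside -0.01 over all genes. The islet endocrine list had a median change of -0.28 in the same comparison, and duct markers had 5 of 10 genes called higher and a median of 0.33. Of the leukocyte markers 6 of 21 were called lower and 1 higher (median -0.2). Without Adβgal arrays 4, 5 and 6, 7 were lower, while calls over all genes rose from 4360 to 6144. The part of these lists in the counts was not tested.

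Slc1a5 rose 2.55-fold over untreated islets, a log2 change of 1.35 (SE 0.11, limma adjusted p = 3.2e-07). Slc38a3 rose 2.04-fold (1.03, SE 0.13, adjusted p = 2.9e-05). Both were already higher in AdNkx6.1 against Adβgal, as were Slc6a8 (1.82-fold), Slc1a1 (1.54-fold) and Slc7a10 (1.37-fold), which also rose here. The Slc1a1 call (adjusted p = 0.038) was lost when untreated array 1, 2 or 5 or AdNkx6.1 array 1, 3, 4 or 5 was left out, at adjusted p of at most 0.1. Slc1a3 was 1.54-fold higher (0.63, SE 0.15, adjusted p = 0.0049) by its brightest probe set, with every AdNkx6.1 array above every untreated one. Its other probe sets differed by -0.01 and by -0.31 (SE 0.10, adjusted p = 0.039 over all probe sets), so the 3 probe sets of this gene disagree. Slc6a18, a neutral amino acid carrier of kidney, rose by 0.35 (SE 0.09, adjusted p = 0.0065) at dim group means of 4.25 and 4.61.

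Among the 12 genes that fell, Slc1a2 (1.75-fold lower), Slc7a14 (1.55-fold), Slc38a4 (1.33-fold), Slc7a4, Slc7a13, Slc38a2 and Slc38a5 were called in another comparison too. The other 5 passed the threshold here and, with all arrays, in neither other comparison, a difference that was not tested. In Adβgal against untreated they changed by -0.37 (Slc7a2), -0.33 (Slc6a6), -0.29 (Slc7a8), -0.23 (Slc38a10) and -0.36 (Slc6a20b). Between the viruses the changes were -0.30, -0.03, -0.06, -0.08 and -0.21 in the same order. Without Adβgal arrays 4, 5 and 6, Slc6a6 was called in Adβgal against untreated (-0.41, limma adjusted p = 0.022). Slc7a2 fell 1.59-fold, from 7.47, 7.32, 7.4, 7.29 and 7.54 untreated to 6.9, 6.84, 6.5, 6.75 and 6.64 with AdNkx6.1 (log2 change -0.67, SE 0.15, limma adjusted p = 0.0028). Its Adβgal arrays ran from 6.49 to 7.46 with a median of 7.14, across both groups.

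Slc6a6, the taurine carrier, read 12.5, 12.56, 12.33, 12.56 and 12.52 untreated and 12.25, 12.19, 11.98, 12.14 and 12.11 with AdNkx6.1. The groups did not overlap, and the change was -0.36 (SE 0.10, limma adjusted p = 0.014). Its second probe set differed by -0.30 (SE 0.17, adjusted p = 0.23). Slc7a8, a light chain for neutral amino acids, changed by -0.35 (SE 0.11, adjusted p = 0.024), and 1 untreated array, the first at 11.51, lay within the AdNkx6.1 range of 11.2 to 11.62. Slc38a10 changed by -0.32 (SE 0.10, adjusted p = 0.028) without overlap. The calls of Slc7a8 and Slc38a10 were each lost with 5 single arrays left out, at adjusted p of at most 0.068 and 0.073. For Slc7a8 these were untreated 2, 3 and 5 and AdNkx6.1 3 and 4, and for Slc38a10 untreated 1 and 4 and AdNkx6.1 3, 4 and 5. Slc7a13 (adjusted p = 0.038) lost its call without untreated array 2, 3, 4 or 5 or AdNkx6.1 array 1, 2, 3 or 4, at adjusted p of at most 0.1. Slc6a20b, of the imino acid carriers, fell by 0.57 at dim group means of 4.13 and 3.57 (adjusted p = 0.01).

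The counts by family describe few genes each and are set beside 25% of all genes called in AdNkx6.1 against Adβgal and 30.7% in AdNkx6.1 against untreated. Of the 6 Slc1a genes 3 were called in the first of these (50%; 2 higher, 1 lower) and 4 in the second (66.7%). Of the 9 Slc38a genes, 22.2% were called in the first, and 5 in the second (55.6%, with 1 higher and 4 lower). Of the 16 Slc6a genes only the creatine carrier Slc6a8 was called between the viruses. Only Slc6a6, Slc6a8, Slc6a9 and Slc6a17 of this family had a mean log2 level above 6. Neither heavy chain (Slc3a1, Slc3a2) and neither Slc43a gene was called in any comparison over all arrays. The arrays measured many of the genes weakly: 19 of the 53 had a mean log2 level at or under 6, and 3 of these 19 were called anywhere. The matching share over all genes at that level was not computed.

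In all, 32 genes were called in none of the comparisons with all arrays, a count for which the matching share over all genes was not computed. They include the large neutral amino acid carrier Slc7a5 (changes of 0.12, -0.05 and 0.07 in the order of the comparisons above), its heavy chain Slc3a2 (-0.09, -0.05 and -0.14) and the cationic carrier Slc7a1 (-0.15, -0.03 and -0.18). The glycine carrier Slc6a9 changed by 0.02, -0.04 and -0.02, with SE 0.09 in the first. Some of the 32 were called in AdNkx6.1 against untreated without Adβgal arrays 4, 5 and 6, where 6144 of all genes were called. These were Slc38a1 (0.24), Slc7a1 (-0.18), Slc43a2 (-0.2) and the dim Slc6a20a (-0.26) and Slc6a4 (-0.39). Their limma adjusted p lay between 0.0071 and 0.041. The carriers of noradrenaline (Slc6a2), dopamine (Slc6a3), serotonin (Slc6a4) and GABA (Slc6a11, Slc6a13) were all dim, with means between 4.1 and 4.62. Slc6a4 read 6.02 on Adβgal array 5, against 4.11 to 4.88 on the other Adβgal arrays. Slc38a9, the arginine sensor of the lysosome, read 4.67 on Adβgal array 4 and 7.11 on array 5, against 5.83 to 6.34 on the rest of that group. For 38 of the 53 genes (71.7%) the Adβgal group had the largest SD, beside 73.9% of all genes, and the median SD was 0.11 untreated, 0.21 with Adβgal and 0.13 with AdNkx6.1.

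The genes that work around the carriers were read from lists. Enzymes of amino acid synthesis and breakdown had 46 measured genes, of which 11 were called higher and 3 lower in AdNkx6.1 against Adβgal, with a median change of 0.03. That is 30.4% called, beside the 25% of all genes (16.6% higher and 8.48% lower). Arg2, the mitochondrial arginase, rose 3.14-fold (6.9 ± 0.32 to 8.55 ± 0.23, limma adjusted p = 7.1e-07) and Aldh4a1, of proline breakdown, 2.21-fold. Gclc, the catalytic subunit of the first step of glutathione synthesis, rose 1.55-fold while Slc7a11 fell, and Bckdha, of branched-chain breakdown, rose 1.56-fold. Without Adβgal arrays 4, 5 and 6 the counts were 13 higher and 6 lower of 46, beside 4028 of 14217 genes called in that fit. In Adβgal against untreated 2 rose and 2 fell (8.7%, beside 7.01% of all genes), and in AdNkx6.1 against untreated 13 rose and 6 fell (41.3%, beside 30.7%).

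Genes of transmitter synthesis, loading, breakdown and receptors had 42 measured members, with 5 higher and 11 lower between the viruses and a median change of -0.06. That is 38.1% called, beside the same 25%. Grin2c (4.35-fold) and Grin2d (2.27-fold), subunits of NMDA receptors, rose. Glrb, the beta subunit of glycine receptors, fell 2.49-fold (7.92 ± 0.33 to 6.6 ± 0.25, limma adjusted p = 2.1e-05) and Grik2, a kainate receptor subunit, 1.96-fold. Against untreated islets, AdNkx6.1 gave 4 higher and 17 lower (50%, beside 30.7% of all genes) with a median of -0.17. Without Adβgal arrays 4, 5 and 6 that count was 7 higher and 20 lower, while calls over all genes rose from 4360 to 6144.

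ATF4 and its amino acid response genes had 27 measured members, with 3 higher (Ddit4, Atf3 and Fgf21) and 3 lower (Eif4ebp1, Eif2ak3 and Mthfd2) between the viruses and a median of -0.17. The 22.2% called with all arrays lies under the 25% of all genes. Ddit4, an mTORC1 inhibitor, rose 1.45-fold, and Eif4ebp1, a repressor of translation, fell 1.29-fold. Without Adβgal arrays 4, 5 and 6 the counts were 3 higher and 7 lower of 27. That is a larger share than that of all genes in that fit, where 4028 of 14217 were called. In Adβgal against untreated 1 gene was called, Atf3 at 1.36-fold higher. Without Adβgal arrays 4, 5 and 6 its adjusted p was 0.092, and Eif4ebp1 was called instead (log2 change 0.28, adjusted p 0.028). In AdNkx6.1 against untreated 3 were higher (Atf3, Ddit4 and Fgf21) and 6 lower (33.3%, beside 30.7% of all genes). Among the lower genes, Asns, asparagine synthetase, was 1.36-fold lower with AdNkx6.1 than untreated (limma adjusted p = 0.0018), and Phgdh, of serine synthesis, 1.39-fold lower.

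Regulators of mTORC1, the kinase that reads amino acid supply, had 36 measured genes with 4 higher and 5 lower between the viruses, 25% as among all genes. Castor1, an arginine sensor, rose 1.4-fold and Sesn1, a sestrin, fell 1.42-fold. Of 19 measured cytosolic aminoacyl-tRNA synthetases, Kars1 and Rars1 rose (1.26-fold and 1.18-fold; 10.5% of the list) and neither was called without Adβgal arrays 4, 5 and 6 (adjusted p 0.095 and 0.067). Among 21 measured carriers of other families and accessory proteins, 4 rose and 5 fell between the viruses (42.9%, beside 25% of all genes). Slc15a1, a peptide carrier, rose 6.01-fold (6.61 ± 0.93 to 9.2 ± 0.12, limma adjusted p = 2.7e-05), Slc15a2, a related peptide carrier, fell 2.53-fold, Stx1a rose 1.98-fold and Ctns, the lysosomal cystine exporter, fell 1.43-fold. Duct markers moved in the same comparison, with 4 of 10 called higher (Krt8, Krt18, Krt7 and Muc1), beside 16.6% of all genes.

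**Figure D5:**
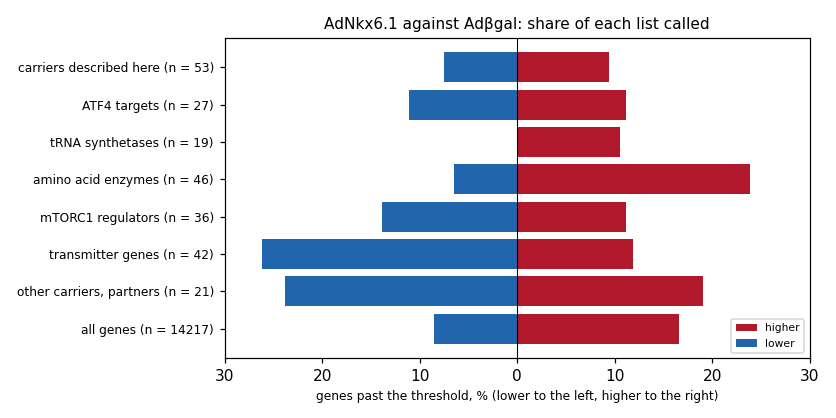
Percent of genes called lower (bars to the left) and higher (bars to the right) in AdNkx6.1 against Adβgal for the 53 carrier genes, the lists of genes around them and all genes (rows). Amino acid enzymes show 11 higher and 3 lower of 46, and transmitter genes 5 higher and 11 lower of 42.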

How the data were processed

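RNA of 16 arrays was labelled with biotin and read on 1-colour Affymetrix arrays. The table deposited by the authors holds linear intensity values per probe set; the submitters' processing notes name RMA, without version or steps. The design had assumed log2 values, so log2 of each intensity was taken, with no pseudocount. Of 31099 probe sets, 57 controls were left out, 20826 had 1 symbol, 436 several and 9780 none; 20758 matched the RefSeq gene table and 0 symbols changed. Each gene was read by its probe set of highest mean. All 3 groups entered 1 limma fit (limma 3.58.1, R 4.3.3; lmFit, contrasts.fit, eBayes), 2-sided, with Benjamini-Hochberg adjustment over 14217 genes, and the script was tested on simulated data. Detection calls were not used. The treatment protocol states 5 replicates a condition; all 6 Adβgal arrays were used. The number of arrays limits the precision.

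The genes and lists were chosen with earlier results of these data known. Named were called genes, uncalled genes of high mean, and up to 4 genes of smallest p in a list. Slc3a1, Slc7a3, Slc7a6, Slc38a7, Slc6a4, Slc6a9, Slc6a20a, Slc38a9, the dim transmitter carriers, Asns and Phgdh were named after their values were seen. Alternatives were the mean of all probe sets, a filter on dim genes, another quantile normalization, array weights, a replicate block, fits of 2 groups and each array left out.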

Additional observations from a re-analysis of the deposited data

Results flagged for a closer look

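In a group of 5 or 6 arrays, a value far from the nearest other array, relative to the range of the group, was seen in 10 of 63 groups examined, and chance gives about 1 in 20. In Slc1a3, untreated array 2 read 10.69 and the nearest array 10.53. In Slc7a4, untreated array 2 read 11.75, with the nearest at 11.69. Untreated array 3 was low in Slc6a6, at 12.33 against 12.5, and high in Slc38a3, at 8.45 against 8.32. Untreated array 1 was low in Slc7a13, at 3.64 against 3.95, and high in Slc38a10, at 12.03 against 11.9. Adβgal array 4 was low in Slc6a8, at 9.73 against 10.46. Adβgal array 5 was high in Slc38a3, at 9.28 against 8.65. AdNkx6.1 array 3 was low in Slc7a10, at 7.53 against 8.13, and AdNkx6.1 array 4 was high in Slc38a4, at 12.46 against 12.33.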

How the results depend on the processing

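None of the called changes of a named carrier gene reversed its direction under any alternative run. Leaving out 1 array at a time kept the call of a carrier gene in 512 instances and lost it in 64, all in the genes given above. Over all genes the calls ranged from 2783 to 3933 for AdNkx6.1 against Adβgal (3560 in the main setting), from 509 to 1503 for Adβgal against untreated (997; more than 1.5 times lower without untreated array 1, 2, 4 or 5 or Adβgal array 6, and higher without Adβgal array 2) and from 3558 to 5069 for AdNkx6.1 against untreated (4360). Among the carriers the ranges were 5 to 6 higher and 3 to 5 lower, 1 to 3 higher and 3 to 7 lower, and 6 to 8 higher and 9 to 14 lower, in the same order. For AdNkx6.1 against Adβgal, array weights gave 8 higher and 7 lower, as did leaving out Adβgal arrays 4, 5 and 6. Calls over all genes were then 4940 and 4028. For Adβgal against untreated, array weights called 1790 of all genes, a fit of the 2 groups alone 521 with 1 carrier higher and 3 lower, and leaving out the 3 arrays 552. For AdNkx6.1 against untreated, array weights called 7469 of all genes, with 9 carriers higher and 22 lower. A fit of these 2 groups alone called 6250 (8 and 16), and leaving out the 3 arrays 6144 (8 and 17). In the fit of 3 groups, Adβgal arrays enter this comparison through the shared estimate of the spread and not through its changes. What set these counts was not tested. With the mean of all probe sets the calls of Slc1a3 were lost. Repeated quantile normalization lost 5 calls, among them Slc7a10 against untreated. Array weights were lowest for Adβgal arrays 4 (0.165) and 5 (0.16).

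Same-numbered arrays were little alike: their deviations correlated between -0.39 and 0.25, above 0.1 in 3 of 15 pairs. The best partner carried the same number in 4 of 15. Whether same-numbered arrays shared an islet preparation is not given. These correlations cannot decide it, because the Adβgal arrays differed widely among themselves. With the replicate block, Adβgal against untreated called 393 genes, with 1 carrier higher and 2 lower, and AdNkx6.1 against Adβgal 2 carriers lower; 9 gene calls were lost, those of Slc1a3, Slc1a5, Slc36a1, Slc38a2 and Slc38a5 in Adβgal against untreated, Slc7a13 and Slc38a10 in AdNkx6.1 against untreated, and Slc7a14 and Slc38a4 in AdNkx6.1 against Adβgal.

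Dim probe sets were kept without detection calls, so folds of genes near the low end are not exact.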
